A study of Homo sapiens with 12 samples.

Results

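Cells given small interfering RNAs (siRNAs) against cGAS were compared directly with cells given siRNAs against STING, with no siRNA against YAP or TAZ in either. The comparison takes 4 of the 12 libraries of the series, 2 per group, taken by their titles. All cells were WI-38, a line of human lung fibroblasts. The cGAS group (replicates 7 and 8) received cGAS siRNA plus a control siRNA named siAS, and the STING group (replicates 13 and 14) received STING siRNA plus the same control siRNA, so that both carried siAS. Cells with siAS alone (control replicates 1 and 2) show where each gene stood without either. The groups cGAS_YT and STING_YT, 2 libraries each, received YAP and TAZ siRNAs in place of siAS. The titles write the cGAS and STING siRNAs with the suffix 4x, which siAS and the YAP and TAZ siRNAs lack and which the labels do not explain. No siRNA sequence or time is stated in these sources, nor is a dose unless that suffix is one.

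The enzyme cGAS binds double-stranded DNA in the cytosol and makes the cyclic dinucleotide cGAMP, which STING, a protein of the endoplasmic reticulum, binds as its receptor. STING then engages the kinase TBK1 and the transcription factor IRF3, which switch on type I interferon genes. Secreted interferon acts through its receptor, JAK kinases and STAT and IRF factors on a large set of interferon-stimulated genes. As sensor and adaptor of a single route, cGAS and STING are often depleted side by side. STING also resides where sterol synthesis is regulated.

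Values are read counts scaled to library size (CPM) from 3' end sequencing, in which a transcript gives about 1 fragment whatever its length. Differences are given as log2(CPM + 1), cGAS minus STING, ± SE from limma, with p-values adjusted by Benjamini-Hochberg over the 13894 genes tested. This scale understates the difference of weakly expressed genes. The SE and p-values rest on a spread shared over all 12 libraries, not on the 4 compared alone. Nothing in the labels makes the replicates separate cultures, and the p-values therefore measure only the spread between libraries, which may be technical. The 4 libraries held between 17796225 and 20021757 reads, and replicates correlated across genes at 0.9946 (cGAS) and 0.995 (STING). All 15 fibroblast markers were in the table, with sums of 30750 and 29650 CPM (cGAS) and 37140 and 36880 CPM (STING). Most of that gap came from 1 marker, COL1A1, at 10480 and 10010 CPM (cGAS) and 16220 and 16360 CPM (STING). Of 28 markers of other cell types, 6 were in the table, summing to 37.8 to 48.36 CPM in the 4 libraries. YAP1 stood at 95.45 and 91.06 CPM after cGAS siRNA and 94.68 and 82.18 CPM after STING siRNA, and WWTR1, which encodes TAZ, at 93.51 and 97.69 against 101.7 and 99.19 CPM. Neither was called between the groups (0.08 ± 0.13 and -0.07 ± 0.12), but WWTR1 lay below its control values of 133.1 and 144.5 CPM in both (adjusted p = 0.00426 and 0.0183).

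The targeted genes separated the groups as labelled. MB21D1, the older symbol of the cGAS gene (chromosome 6, 73413515 to 73452276, GRCh38), stood at 1.939 and 1.767 CPM after cGAS siRNA and at 5.461 and 4.667 CPM after STING siRNA (-1.09 ± 0.22, adjusted p = 0.00109). TMEM173, the older symbol of the STING gene (chromosome 5, 139475534 to 139482935), stood at 28.36 and 29.9 CPM after cGAS siRNA and at 1.785 and 1.77 CPM after STING siRNA (3.44 ± 0.16, adjusted p = 5e-10). Each transcript was lowest in the group that targeted it, with no overlap. The STING group kept 7.39% of control TMEM173 and the cGAS group 23.5% of control MB21D1, a gene that began at only 9.601 and 6.136 CPM.

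Across all genes, 4670 of 13894 (33.6%) were called different. Of these, 2221 (16% of genes tested) were higher and 2449 (17.6%) lower in cGAS-siRNA than in STING-siRNA cells, and 448 (3.22%) and 353 (2.54%) of them differed at least 2-fold. These shares are the background against which each gene group below is read. Both cGAS libraries lay above both STING libraries for 33.7% of genes and below them for 38.0%. Against the control libraries, which both comparisons share, 1543 genes (11.1%) rose and 1985 (14.3%) fell after cGAS siRNA, and 853 (6.14%) rose and 1231 (8.86%) fell after STING siRNA. Among genes at least 2-fold lower in the cGAS group, control was nearer to STING for 297 of 353 (84.1%), against 292 of 448 (65.2%) of those at least 2-fold higher. Over all called genes these shares were smaller, at 1693 of 2449 lower (69.1%) and 1249 of 2221 higher (56.2%). The counts rest on both libraries of each group: they were 1451 and 1572 without cGAS replicate 7, and 1491 and 1474 without STING replicate 13.

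**Figure D1:**
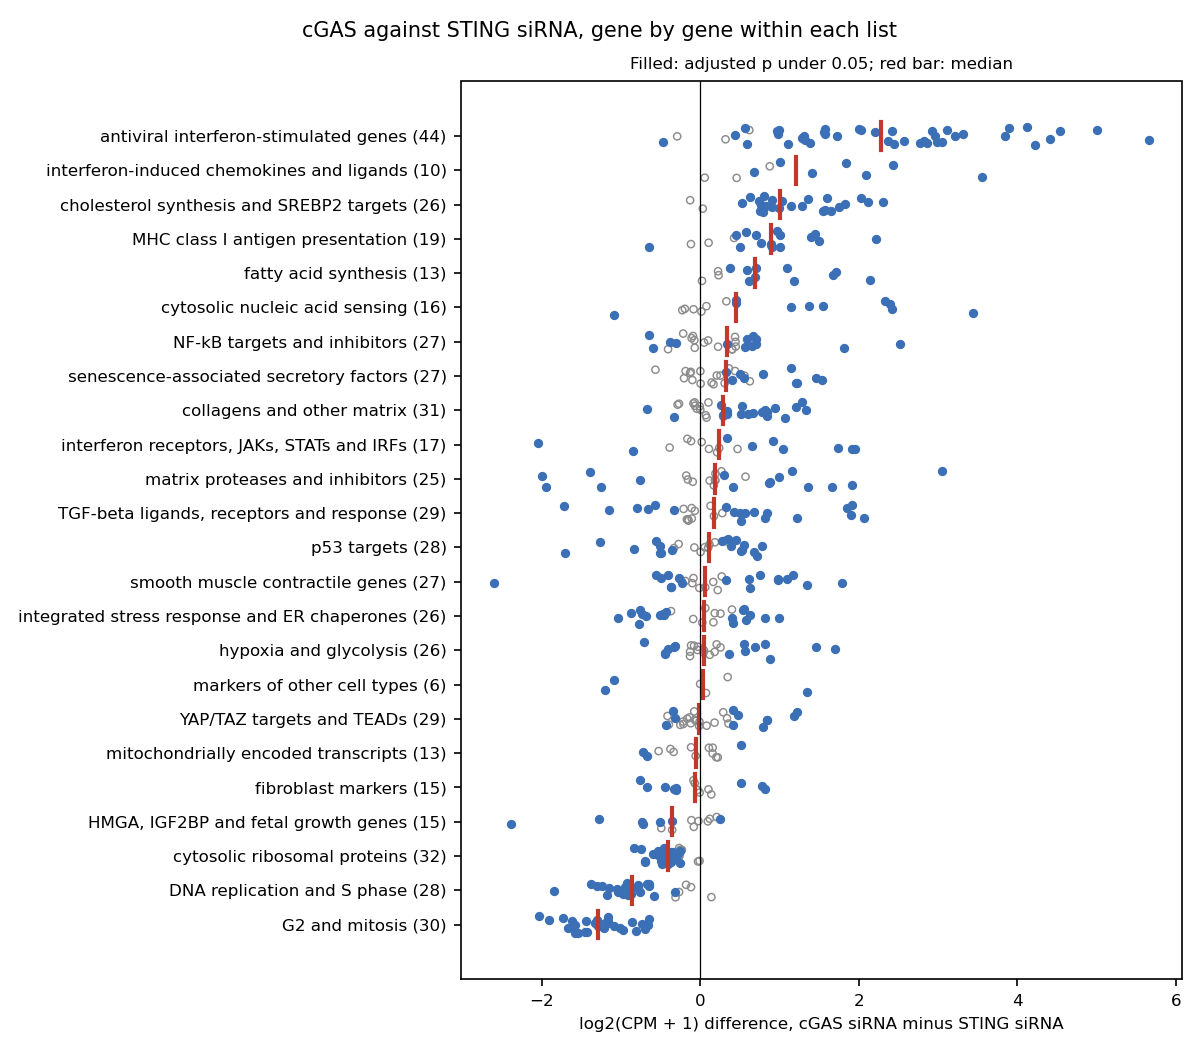
Each point is 1 gene of a list, placed on the horizontal axis by its log2(CPM + 1) difference, cGAS minus STING siRNA; filled points had an adjusted p under 0.05, open points did not, red bars are list medians and the number tested is in parentheses. Antiviral interferon-stimulated genes lie farthest to the right (median 2.28) and genes of G2 and mitosis farthest to the left (median -1.29).

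Interferon-stimulated genes gave the largest differences, nearly all toward the cGAS group. Of 44 antiviral genes tested, 40 were higher in cGAS-siRNA cells and 1 was lower, with a median difference of 2.28 beside -0.02 over all genes. Their summed level was 11020 and 10390 CPM in the cGAS libraries, 3271 and 4110 CPM in the STING libraries and 2760 and 2826 CPM in control. The STING libraries thus lay above control by far less than the cGAS libraries did. A motif of such promoters, the interferon-stimulated response element, was searched on both strands as GAAA, any 2 bases and GAAA again, in RefSeq promoters (GRCh38.p14, 250 bases before to 50 after the gene start). It occurred in 25 of the 38 listed genes with a promoter in the table (65.8%) and in 3.0% of all tested genes with one; it also occurred in 5.0% of genes higher and 2.2% of genes lower in the cGAS group. Each window below shows 30 bases, 5' to 3' on the gene's strand, with the first match in capitals. A match on the opposite strand begins TTTC. Further matches within a window, as in BST2 and ISG15, stay in lower case. The windows belong to genes described next and were chosen among those with a match. IFITM3, described later and not called in the fit over all libraries, held 2 matches as well. RSAD2, OAS1 and OAS2 gave no window, for lack of a match or of a promoter in the table. A match is a description, and its absence says only that these letters are not in the window.
MX1 (chr21:41420559-41420588, + strand): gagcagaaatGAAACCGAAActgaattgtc
BST2 (chr19:17405741-17405770, - strand): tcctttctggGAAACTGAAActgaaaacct
IFI44L (chr1:78620274-78620303, + strand): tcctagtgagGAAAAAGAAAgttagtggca
ISG15 (chr1:1013374-1013403, + strand): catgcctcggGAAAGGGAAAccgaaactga
IFIT1 (chr10:89392497-89392526, + strand): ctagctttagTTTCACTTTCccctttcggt
IFI27 (chr14:94110618-94110647, + strand): atgtctgcagTTTCGGTTTCctggaaaatg

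The antiviral effectors stood many-fold higher after cGAS siRNA than after STING siRNA. RSAD2, which encodes the antiviral enzyme viperin, stood at 78.89 and 60.82 CPM after cGAS siRNA, 0.21 and 0.5901 CPM after STING siRNA and 0.2076 and 0.5113 CPM in control (5.66 ± 0.59, adjusted p = 2.01e-06). MX1, a dynamin-like GTPase that blocks viral nucleocapsids, stood at 554.3 and 529.3 CPM against 9.505 and 26.29 CPM (5.0 ± 0.41, adjusted p = 1.9e-07). The STING libraries thus lay on either side of the control values of 11.73 and 11.02 CPM. OAS1 and OAS2, synthetases of the 2-5A messenger that activates RNase L, differed by 4.42 ± 0.38 and 4.54 ± 0.39. OAS2 stood at 129.6 and 126.7 CPM against 2.521 and 7.779 CPM. BST2, a tether that holds budding virions at the cell surface, stood at 105.4 and 99.65 CPM against 3.151 and 6.437 CPM (4.22 ± 0.27). IFIT1, which binds viral RNA, stood at 205.5 and 187.4 CPM against 15.6 and 26.34 CPM (3.21 ± 0.30), and the ubiquitin-like ISG15 at 532.7 and 549 CPM against 58.76 and 84.49 CPM (2.92 ± 0.25). In none of these did the groups overlap.

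A few members differed in pattern from this. IFI6, a mitochondrial and endoplasmic reticulum protein, was high in both groups, at 3090 and 2762 CPM after cGAS siRNA and 386.4 and 630.3 CPM after STING siRNA, beside 101.8 and 109.4 CPM in control. IFI27 stood at 243.6 and 230.4 CPM against 18.22 and 28.75 CPM, beside 5.346 and 4.716 CPM in control, and IFI44L at 471.9 and 441.4 against 16.59 and 38.46 CPM, beside 7.214 and 8.522 CPM. All 3 were above control after STING siRNA too (adjusted p = 2.71e-06, 6.52e-05 and 0.000955), and differed between the siRNAs by 2.56 ± 0.21, 3.31 ± 0.26 and 4.12 ± 0.27. STING replicate 14 lay above replicate 13 for each gene of this and the previous paragraph. IFITM2, which restricts viral entry, was the listed gene lower in the cGAS group (238.8 and 225.1 CPM against 309.1 and 335.8 CPM, -0.47 ± 0.15, adjusted p = 0.0253, a call lost without any 1 of the 4 libraries), and its close relative IFITM3 was not called (-0.29 ± 0.14), except with the 4 compared libraries fitted alone (limma adjusted p = 0.00022). These share sequence, so reads may be split uncertainly between them.

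**Figure D2:**
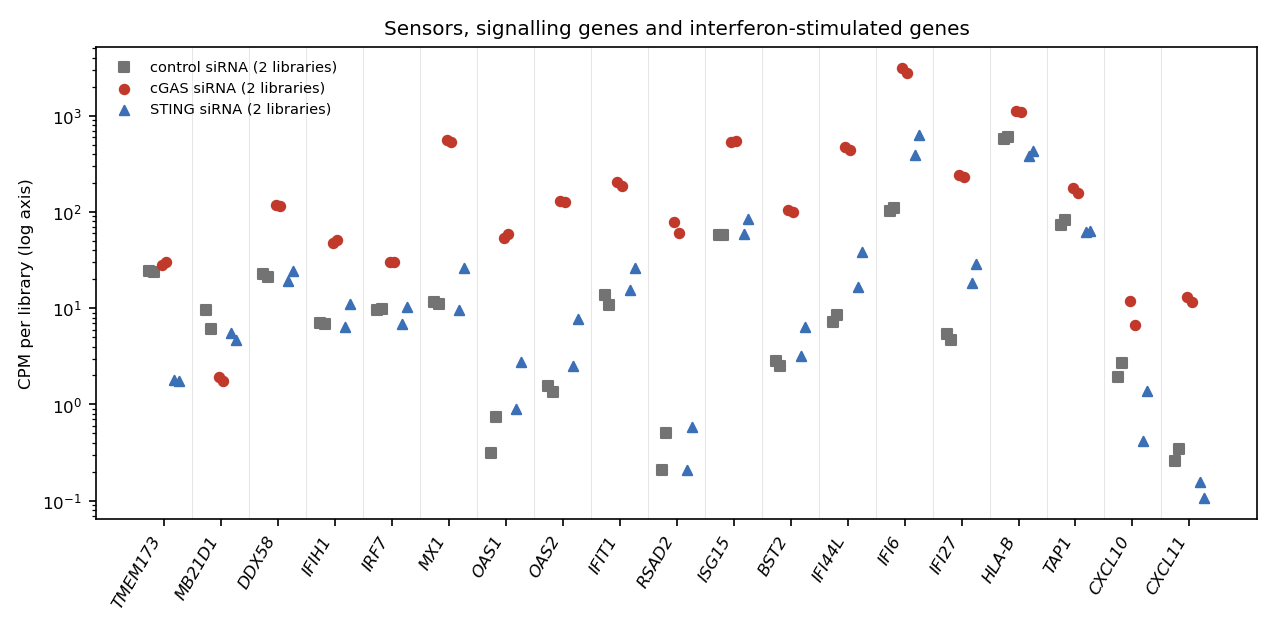
CPM per library on a log axis for 19 genes of sensing, signalling and interferon response; squares are control, circles cGAS siRNA and triangles STING siRNA, with 1 symbol per library. The cGAS libraries lie above the rest for every gene except MB21D1, for which they are lowest, and TMEM173, which is low only after STING siRNA.

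Upstream of these effectors, the sensing and signalling genes were less uniform. Cytosolic RNA sensors were higher in the cGAS group: DDX58, which encodes RIG-I, at 117.3 and 116.5 CPM against 19.17 and 24.09 CPM (2.39 ± 0.23), and IFIH1, which encodes MDA5, at 48.09 and 51.05 against 6.406 and 11.1 CPM (2.42 ± 0.26). The RNA-activated kinase gene EIF2AK2 differed by 1.37 ± 0.13 and the nucleotide-degrading SAMHD1 by 2.32 ± 0.19. The shared kinase, transcription factor and adaptor were not called in the fit over all libraries: TBK1 differed by 0.33 ± 0.20 (limma adjusted p = 0.039 with the 4 compared libraries alone), IRF3 by -0.20 ± 0.16 and the RIG-I adaptor MAVS by -0.09 ± 0.07. In all, 9 of 16 sensing genes were higher and 1 lower, counting the 2 targeted genes. Among 17 genes of interferon receptors, JAKs, STATs and IRFs, 7 were higher and 2 lower. IRF7, which amplifies interferon production, stood at 30.3 and 30.24 against 6.932 and 10.19 CPM (1.73 ± 0.22). USP18, a brake on interferon receptor signalling, differed by 1.91 ± 0.23, whereas IFNAR1, a chain of the type I receptor, was not called (-0.16 ± 0.09). IRF9, IFNB1 and IFNL1 had no entry under these names in the table, so no values can be given for them.

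STAT3, which carries signals of the IL-6 family, went the other way within the same list. It stood at 38.17 and 34.85 CPM after cGAS siRNA, 151.7 and 155.1 CPM after STING siRNA and 161.1 and 172 CPM in control (-2.04 ± 0.09, adjusted p = 1.87e-10). Its feedback inhibitor SOCS3 was also lower (-0.85).

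Genes of antigen presentation and interferon-induced chemokines were mostly higher in the cGAS group as well. Of 19 MHC class I genes, 15 were higher and 1 lower (median 0.89). HLA-B, a classical class I heavy chain, stood at 1120 and 1095 CPM against 382.7 and 432.4 CPM (1.44 ± 0.15), with control between, at 573.1 and 606.9 CPM. TAP1, a subunit of the peptide transporter, differed by 1.40 ± 0.16 and the immunoproteasome subunit PSMB9 by 1.49 ± 0.17. HLA genes are polymorphic and alike, so reads may be assigned uncertainly among them. Against control, 11 of the 19 rose after cGAS siRNA and 7 fell after STING siRNA. The chemokine CXCL10 stood at 11.91 and 6.676 CPM against 0.4201 and 1.395 CPM (2.43 ± 0.41). CXCL11, a ligand of the same receptor, stood at 13.02 and 11.63 CPM after cGAS siRNA, while both STING libraries, at 0.1575 and 0.1073 CPM, held no more than the worth of 3 reads. In that list of chemokines and ligands 7 of 10 were higher and none lower.

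Sterol synthesis genes were also higher in the cGAS group. Of 26 genes of cholesterol synthesis and SREBP2 targets, 24 were higher and none lower (median 1.01). SREBP2 is the transcription factor that raises this pathway when sterols in the endoplasmic reticulum fall. Here control stood between the groups: the summed level was 2033 and 1979 CPM in the cGAS libraries, 765.3 and 763.9 CPM in the STING libraries, and 1032 and 1090 CPM in control. Set against control, 21 rose after cGAS siRNA and 12 fell after STING siRNA, with none in the opposite direction in either. These comparisons share the control libraries and are given side by side only.

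Enzymes of early and late steps of the pathway took part. HMGCS1, which makes HMG-CoA, stood at 229.9 and 216.8 CPM against 44.53 and 44.63 CPM (2.30 ± 0.09, adjusted p = 6.76e-11), beside 59.47 and 58.24 CPM in control. MVD, the last step before isopentenyl diphosphate, stood at 26.87 and 25.08 against 5.146 and 6.116 CPM (2.03 ± 0.16). Later, CYP51A1, which demethylates lanosterol, differed by 1.75 ± 0.11 and MSMO1 by 1.57 ± 0.09. The phosphomevalonate kinase gene PMVK was among the 2 genes not called (0.03 ± 0.13). INSIG1, which retains the SREBP complex in the endoplasmic reticulum, was at 90.85 and 87.62 CPM after cGAS siRNA, near its control values of 85.84 and 97.1 CPM, and at 54.77 and 60.51 CPM after STING siRNA (0.62 ± 0.11). A sterol regulatory element searched as TCACNCCAC on both strands occurred in 1 of the 19 listed genes with a promoter in the table and in 1.1% of tested genes with a promoter.

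Fatty acid genes followed the same order, with 10 of 13 higher in the cGAS group and none lower (median 0.69). FADS2 and FADS1, the desaturases of polyunsaturated fatty acids, differed by 2.14 ± 0.09 and 1.71 ± 0.08, and SCD, which makes oleate, by 1.68 ± 0.08. FADS2 stood at 172.8 and 183.2 CPM against 40.59 and 38.62 CPM, with control at 84.13 and 82.33 CPM. SREBF1, which encodes the factor SREBP1, was not called (0.02).

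**Figure D3:**
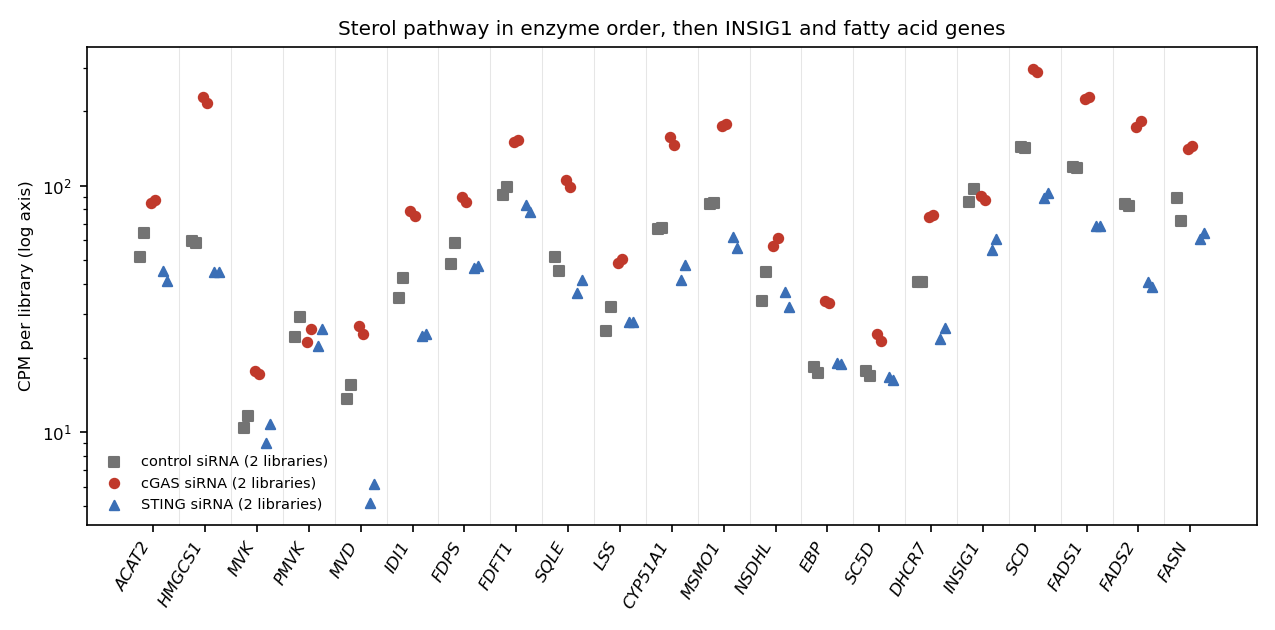
CPM per library on a log axis for 16 sterol enzymes in pathway order, then INSIG1 and 4 fatty acid genes; squares are control, circles cGAS siRNA and triangles STING siRNA. For most enzymes the 3 groups stand in the order cGAS, control, STING, while for PMVK the groups overlap.

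Proliferation genes were lower in cGAS-siRNA cells. All 30 genes of G2 and mitosis were lower (median -1.29), as were 23 of 28 genes of DNA replication and S phase with none higher (median -0.87), or 15 without STING replicate 13. The mitotic list summed to 584.4 and 616.7 CPM in the cGAS libraries, 1554 and 1510 CPM in the STING libraries and 1287 and 1368 CPM in control. In bulk samples fewer cycling cells and less of these transcripts per cell cannot be told apart. MKI67, the proliferation marker Ki-67, stood at 16.12 and 20.91 CPM against 71.05 and 72.47 CPM (-1.91 ± 0.16, adjusted p = 2.99e-07). NUSAP1, a spindle protein, differed by -2.04 ± 0.16, and TOP2A, the topoisomerase that untangles chromosomes in mitosis, stood at 153.7 and 153.5 against 356.5 and 352.6 CPM (-1.20 ± 0.11). RRM2, the S-phase subunit of ribonucleotide reductase, differed by -1.85 ± 0.16, and LMNB1, which encodes lamin B1, by -1.62 ± 0.18. FAM111B, a replication-associated protease gene, stood at 2.438 and 2.504 against 14.28 and 14 CPM (-2.13 ± 0.22), and MYBL2, a transcription factor of late cell cycle genes, differed by -1.92 ± 0.19. Against control, 29 of the 30 mitotic genes fell after cGAS siRNA, while 2 rose and none fell after STING siRNA. PCNA, the replication clamp, was among the 5 S-phase genes not called (-0.12 ± 0.13).

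Among p53 targets, genes were called in both directions. CDKN1A, which encodes the inhibitor p21, stood at 1298 and 1326 against 1214 and 1209 CPM (0.11 ± 0.10, not called), and of 28 p53 targets 10 were higher and 8 lower (6 higher without cGAS replicate 7 or STING replicate 14). PHLDA3, a repressor of Akt, was lowest of them at 23.49 and 24.74 against 88.38 and 74.83 CPM (-1.71 ± 0.12), and CCNG1 (cyclin G1) differed by -1.26 ± 0.14, while RRM2B, the p53-induced reductase subunit, differed by 0.72 ± 0.10. Ribosomal protein genes were lower in the cGAS group for 25 of 32 and higher for none, by a smaller amount (median -0.41, and 16 genes without STING replicate 13), with RPL13 at 546.9 and 542.5 against 996.4 and 952.7 CPM (-0.84 ± 0.10). The mitochondrially encoded transcripts, read as a sign of RNA composition, had sums of 23490 and 22330 CPM (cGAS) and 22960 and 29770 CPM (STING), with 1 of 13 higher and 2 lower. Those counts were 0 and 3 without STING replicate 13, 1 and 0 without STING replicate 14, 0 and 2 without cGAS replicate 7, 0 and 1 without cGAS replicate 8, and 4 and 5 when the 4 compared libraries were fitted alone.

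Collagens and other matrix genes were more often called higher than lower in the cGAS group. Their summed level was lower there, at 38560 and 37000 CPM against 40620 and 40460 CPM in the STING libraries. In control it was 47440 and 44680 CPM. COL1A1 alone, whose values are given below, differed between the groups by more CPM than this sum did. The lower sum therefore reflects that gene and not the list as a whole. TGF-beta response and contractile genes were called in both directions. Of 29 TGF-beta genes 13 were higher and 6 lower in the cGAS group, of 31 collagens and other matrix genes 17 and 2 (1 lower without cGAS replicate 8 or STING replicate 14), of 25 matrix proteases and inhibitors 10 and 5, and of 27 contractile genes 10 and 8 (4 lower without cGAS replicate 7 and 3 without STING replicate 13). COL7A1, the collagen of anchoring fibrils, stood at 112.8 and 118.5 CPM against 25.1 and 28.65 CPM (2.07 ± 0.13), with control at 86.77 and 62.78 CPM. PMEPA1, a feedback inhibitor of TGF-beta signalling, differed by 1.90 ± 0.12. PLAT, the tissue plasminogen activator, stood at 38.67 and 41.19 against 165.4 and 160.6 CPM (-2.0 ± 0.10). The coreceptor gene TGFBR3 stood at 8.254 and 9.818 against 32.35 and 31.33 CPM (-1.71 ± 0.20), with control at 14.01 and 8.125 CPM, nearer to the cGAS group. ACTA2, smooth muscle actin, stood at 1719 and 1764 against 818.9 and 816.9 CPM (1.09 ± 0.10), with control at 1753 and 1915 CPM near the cGAS group. ELN (elastin) differed by 1.28 ± 0.11 and FBN1 (fibrillin) by 1.07 ± 0.10, whereas COL1A1, the main fibrillar collagen, stood at 10480 and 10010 against 16220 and 16360 CPM (-0.67 ± 0.14). MMP14, a membrane-bound collagenase, differed by -1.26 ± 0.09, and CEMIP, which breaks down hyaluronan, by -1.95 ± 0.17.

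Inflammatory and secretory genes were more often higher than lower in the cGAS group than in the STING group. Set against control, 4 NF-kB targets and inhibitors rose and 7 fell after cGAS siRNA, and none rose and 9 fell after STING siRNA. Among secretory factors, 9 rose and 2 fell after cGAS siRNA, and 1 rose and 6 fell after STING siRNA. Of 27 NF-kB targets and inhibitors, 9 were higher and 4 lower (2 lower without cGAS replicate 7, cGAS replicate 8 or STING replicate 13). PTGS2, the inducible cyclooxygenase, stood at 13.41 and 15.71 against 1.208 and 2.307 CPM (2.52 ± 0.23, adjusted p = 5.82e-07), and the endothelial-type adhesion gene VCAM1 at 59.22 and 56.4 against 33.98 and 38.09 CPM (0.67 ± 0.12). Of 27 secretory factors 10 were higher and none lower, with the hormone gene STC1 at 311.9 and 276.4 against 108 and 105 CPM (1.45 ± 0.15), ANGPTL4, an inhibitor of lipoprotein lipase, at 13.24 and 11.93 against 3.833 and 3.541 CPM (1.53 ± 0.18), and the EGFR ligand AREG at 1.14 ± 0.17. Of 29 YAP/TAZ targets and TEADs 8 were higher and 3 lower (median -0.02), or 12 and 10 when the 4 compared libraries were fitted alone. CYR61 (478.7 and 475.2 against 547.2 and 523.3 CPM) was not called over all 12 libraries (limma adjusted p = 0.0085 with the 4 alone), while CTGF, a further matricellular target, stood at 648.2 and 663.7 against 383 and 348.5 CPM (0.84 ± 0.15). Of 26 genes of the integrated stress response and chaperones 8 were higher and 10 lower, and of 26 hypoxia and glycolysis genes 8 and 6 (3 lower without STING replicate 13), with the neuronal-type glucose transporter SLC2A3 at 221 and 213.6 against 79.45 and 77.3 CPM (1.46 ± 0.08). Among cell type markers, 3 of 15 for fibroblasts were higher and 6 lower (3 lower without cGAS replicate 7, cGAS replicate 8 or STING replicate 13), and of 6 for other types MYH11 was higher and KRT15 and KRT18 were lower (KRT15 was not called without cGAS replicate 8).

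Several single genes were among the most different, MYL6 of the contractile list and HMGA2 of the fetal growth list included. MYL6, a myosin light chain, was lowest of all genes, at 379.7 and 390.9 CPM after cGAS siRNA, 2394 and 2294 CPM after STING siRNA and 2310 and 2622 CPM in control (-2.60 ± 0.10). HMGA2, a chromatin architectural protein of fetal and growing cells, stood at 82.88 and 93.66 against 488.4 and 446.3 CPM (-2.39 ± 0.12), with 6 of 15 genes of its list lower and 1 higher (0 without any 1 of the 4 libraries). RPA1, the large subunit of the single-strand DNA binding complex, stood at 15.4 and 15.07 against 73.73 and 64.37 CPM (-2.11 ± 0.13), and MSRB3, a methionine sulfoxide reductase, differed by -1.96 ± 0.10. NEGR1, a neuronal adhesion protein, stood at 14.13 and 14.73 against 67.58 and 81.49 CPM (-2.29 ± 0.12), with control at 36.28 and 35 CPM between them. WNT16, a secreted Wnt ligand, was likewise below control in one group and above it in the other (-1.95 ± 0.25). In the other direction, ADAM19, a membrane protease, stood at 499.9 and 484.1 against 57.4 and 59.38 CPM (3.05 ± 0.07), with control at 361.4 and 340.2 CPM, and CMTM6, which stabilises the checkpoint ligand PD-L1, at 377.3 and 388.1 against 70.79 and 56.86 CPM (2.57 ± 0.10). NPR3, the clearance receptor for natriuretic peptides, stood at 30.08 and 27.29 against 1.47 and 2.414 CPM (3.35 ± 0.21), with control at 2.232 and 3.75 CPM.

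An siRNA can lower transcripts other than its target when bases 2 to 8 of its guide strand pair with their 3' UTR, as a microRNA does. The heptamers GCATTCA and GTCATAT had been associated, in an earlier analysis of these libraries, with genes lower after cGAS and after STING siRNA, so their presence here is a description and not independent evidence. Without the siRNA sequences, neither heptamer could be matched to a guide strand, and neither is known to be a seed of these siRNAs. Of 11653 genes with a 3' UTR of at least 50 bases in GENCODE release 29 (longest per gene), 11.5% held GCATTCA, against 18.9% of genes lower and 8.8% of genes higher in the cGAS group. For GTCATAT the shares were 9.5%, 7.2% and 14.5%. Which of its annotated 3' UTRs each gene used in these cells was not tested. Sites are shown as 27 bases 5' to 3' on the transcript's strand with the heptamer in capitals, first for the cGAS transcript and genes lower in the cGAS group, then for genes lower in the STING group.
MB21D1 (chr6:73424008-73424034, - strand): attttaggtaGCATTCAgcctagaggc
HMGA2 (chr12:65954395-65954421, + strand): tagggctaaaGCATTCAgaatcatctt
STAT3 (chr17:42314801-42314827, - strand): ggtgctttaaGCATTCAgcttccttca
RPA1 (chr17:1897950-1897976, + strand): acacattcctGCATTCAtgtattttgt
MSRB3 (chr12:65464461-65464487, + strand): aaagaaagcaGCATTCAaatgtaagac
NEGR1 (chr1:71407133-71407159, - strand): cttttcaaaaGCATTCAgtcatggtct
ADAM19 (chr5:157479944-157479970, - strand): ggccattgggGTCATATgtttattttt
CMTM6 (chr3:32481907-32481933, - strand): cagctggcctGTCATATaaaacatact

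Among genes averaging 5 CPM or more, the difference moved with the number of sites. Its median was -0.03 for 8399 genes without GCATTCA, -0.15 for 940 genes with 1 site and -0.27 for 176 genes with 2 or more. In the libraries that also had YAP and TAZ siRNAs, these medians were 0.03, -0.10 and -0.32. With GTCATAT the medians were -0.05, 0.07 and 0.19 for 8583, 813 and 119 genes, and 0.00, 0.16 and 0.26 with YAP and TAZ siRNAs. Genes with more sites also had longer 3' UTRs (medians of 1328, 3225 and 5136 bases for GCATTCA), and the part of UTR length was not tested. Of the 14 lowest genes 6 held GCATTCA (HMGA2, NEGR1, RPA1, STAT3, PEX2 and MSRB3). MYL6, PLAT, CEMIP, FAM111B, NUSAP1, WNT16 and MYBL2 did not, and LINC00094 had no such UTR in the annotation. HMGA2 held 1 GTCATAT site as well, the only one of the 14 lowest to do so. MX1, RSAD2, OAS1, BST2, MX2, CXCL11, TMEM173, IFI27 and IFIT1, of the 14 highest, held neither heptamer, OAS3 held GCATTCA, and OAS2, IFI44L, CMPK2 and NPR3 held GTCATAT. The target TMEM173 held neither.

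**Figure D4:**
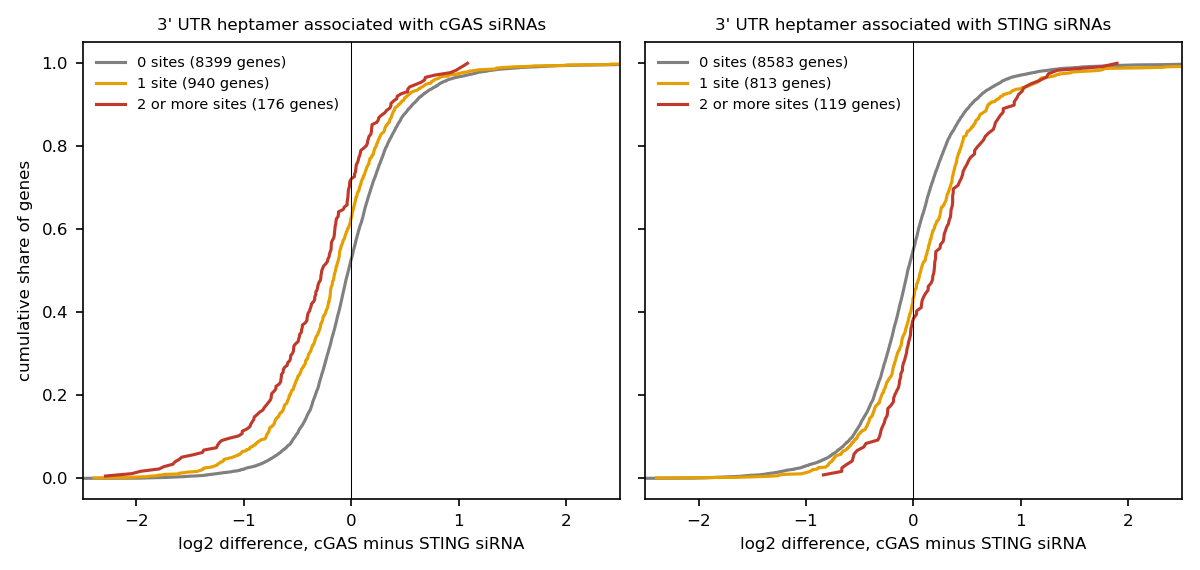
Cumulative share of genes (vertical axis) at or below each log2 difference, cGAS minus STING siRNA (horizontal axis), by the number of sites in the 3' UTR of the heptamer associated with cGAS siRNAs (left) or with STING siRNAs (right). Curves move left with more sites on the left (medians -0.03, -0.15 and -0.27) and right on the right (medians -0.05, 0.07 and 0.19).

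In all, 5120 genes (36.9%) were called when the comparison was repeated in the 4 libraries that also received YAP and TAZ siRNAs, which share no library with those above. Across 13894 genes, which are not independent, the differences correlated at r = 0.72. Of the genes higher after cGAS siRNA, 1552 were higher in both backgrounds, which is 69.9% of those without and 56.7% of those with YAP and TAZ siRNAs (19.7% of genes were higher there). Of the genes lower, 1443 were lower in both, or 58.9% and 60.5% (17.2% were lower there). A test of the difference itself called 718 genes (5.17%), 490 positive (3.53%) and 228 negative (1.64%), and 266 without STING replicate 13. Of the antiviral genes 39 of 44 were higher there and 2 lower, with a median of 1.52. The cGAS_YT libraries stood apart on that list, with sums of 13480 and 7519 CPM against 4435 and 4735 CPM in the STING_YT libraries, and the test of the difference called 2 of its 44 genes. Cholesterol genes had 23 of 26 higher and a median of 1.49. PTGS2 changed sign: cGAS_YT libraries held 24.37 and 25.89 CPM and STING_YT libraries 34.98 and 61.08 CPM (-0.86 ± 0.23), and the change in its difference was -3.38 ± 0.33 (adjusted p = 3.78e-05). For 15 of the 30 mitotic genes the gap was narrower with YAP and TAZ siRNAs, and for none wider. LMNB1, for example, differed by -0.02 there, at 1.59 ± 0.26 from its value without them. These genes were low there, where the log2(CPM + 1) scale understates differences. The mitotic list summed to 144 and 119.3 CPM (cGAS_YT) and 180.6 and 174.4 CPM (STING_YT). LMNB1 stood at 3.447 and 2.386 against 3.165 and 2.744 CPM.

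**Figure D5:**
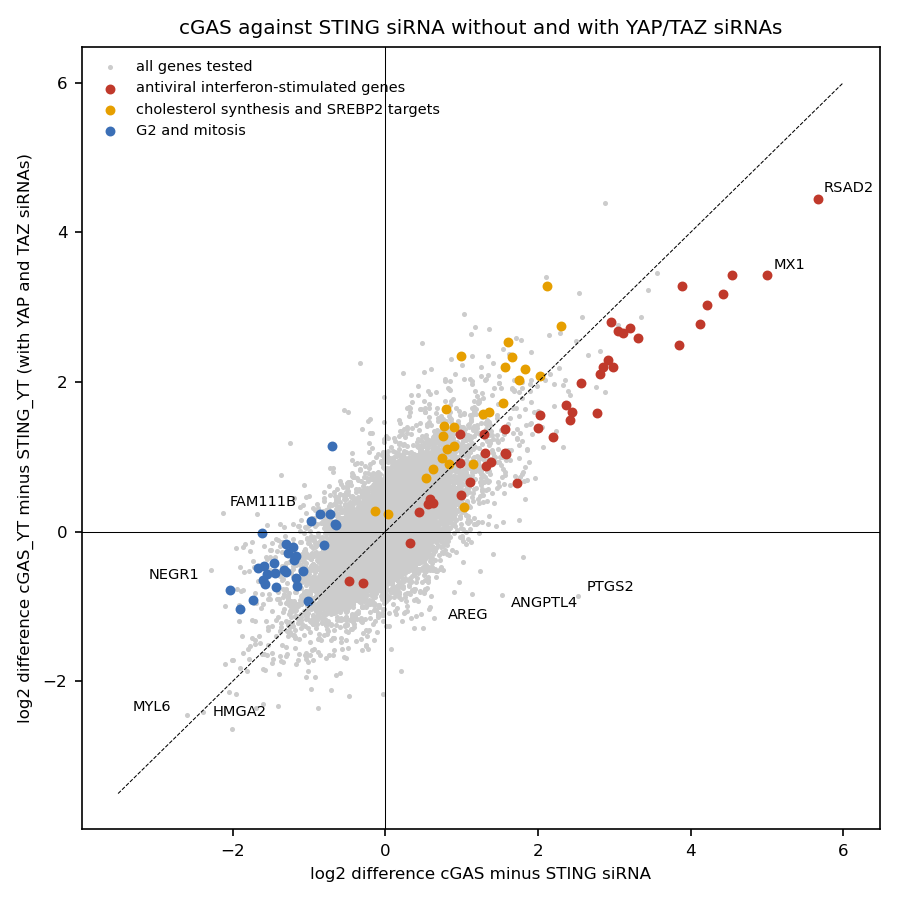
Each point is 1 gene, with its log2 difference cGAS minus STING siRNA on the horizontal axis and the same difference in cells with YAP and TAZ siRNAs on the vertical axis; the dashed line marks equal differences. Antiviral genes lie upper right, mostly below the line, cholesterol genes mostly above it, mitotic genes to the left and above it, and PTGS2 in the lower right quadrant.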

How the data were processed

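Poly(A) RNA of 12 WI-38 libraries, 2 in each of 6 groups, was read by 3' end sequencing. The deposited table holds a signal per gene and library, read counts divided by a scaled library size; STAR 2.5.3a, featureCounts, edgeR and hg38 are named, per the submitters' processing notes, while strand setting and annotation are not named there. All values (100.0%) were whole multiples of 1 read, within 0.01 reads, so the reads were recovered. The 4 libraries compared have 3 reads at 0.147 to 0.166 CPM, and such limits cover counting error only.

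Genes reaching 1 CPM in 2 or more libraries entered limma 3.58.1 (R 4.3.3) on the log2(CPM + 1) scale, fitted over all 12 libraries so that 1 estimate of the spread is shared, with a mean-dependent prior and Benjamini-Hochberg adjustment at 0.05. The script was tested on simulated data. On the recovered reads edgeR 4.0.16 called 2197 genes higher and 2400 lower, and DESeq2 1.42.0 called 2216 and 2269. Other pseudocounts (0.25 and 4), filters, scalings and each library left out were tried, and a fit of the 4 compared libraries alone called 3010 higher and 3353 lower.

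The comparison and the 24 gene lists (584 genes, 541 in the table) were chosen with earlier results of these data known. Named genes are the targets, the 14 highest and 14 lowest called genes averaging at least 5 CPM without overlap, the 4 list members with the smallest p where called, and a set of pathway genes. CMTM6 and further list members and uncalled genes named beside them were chosen after their values were seen. Gene positions and 3' UTRs come from GENCODE release 29 (GRCh38) and promoters from RefSeq. Some genes of these lists are not reported here.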

Additional observations from a re-analysis of the deposited data

Results flagged for a closer look

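For 21 of the genes named above, the difference between cGAS and STING siRNA itself differed between cells with and without YAP and TAZ siRNAs (limma, adjusted p under 0.05 for the difference of differences). Each value here is the log2 difference with them minus that without them. It was positive for the proliferation genes FAM111B (2.38), LMNB1 (1.59), RRM2 (1.31), NUSAP1 (1.25), MKI67 (0.87), PCNA (0.85) and TOP2A (0.83). It was also positive for NEGR1 (1.77), CEMIP (1.73), CYR61 (1.09), CTGF (1.05) and WWTR1 (0.64). Among lipid genes it was positive for MSMO1 (0.63) and FADS2 (0.49). It was negative for PTGS2 (-3.38), ANGPTL4 (-2.38), AREG (-1.98), STC1 (-1.38), COL7A1 (-0.94), VCAM1 (-0.67) and PLAT (-0.64). FAM111B stood at 0.6139 and 0.4669 CPM in the cGAS_YT libraries and at 0.2776 and 0.3049 CPM in the STING_YT libraries, so little of it was left there to differ. LMNB1 was low there too, at 3.447 and 2.386 against 3.165 and 2.744 CPM.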

How the results depend on the processing

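With each library left out in turn, genes higher in the cGAS group numbered 1451 to 1601 and genes lower 1474 to 1740, where fewer samples enter the fit and the single library left in a group is taken to vary as the rest do. Genes whose difference changed with YAP and TAZ siRNAs numbered 266 to 538 with a library left out, 361 with a constant prior and 1770 when fitted on the libraries of the compared groups alone. Antiviral genes higher numbered 38 to 42, cholesterol genes higher 21 to 24 and mitotic genes lower 26 to 30 over all alternatives. Uncalled genes changed sign without 1 library: YAP1 (-0.02 to 0.18), IRF3 (-0.40 to 0.01), PMVK (-0.08 to 0.14, and -0.05 without cGAS replicate 8) and SREBF1 (-0.03 to 0.07). Fitted on the 4 compared libraries alone, TBK1, CYR61 and IFITM3 were called too. The IFITM2 call was also lost with a constant prior and with DESeq2. No paired analysis was possible because each replicate number occurs in 1 group only.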
